A study of Danio rerio with 17 samples.

Results

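BX908782.2 and BX908782.3, both annotated as CD59 glycoprotein-like genes, were followed in livers of adult zebrafish after hepatic cryoinjury. They are 2 of the 8513 genes in the count table. They were chosen by measured values, namely their very large rise over sham in these same samples, so their levels, their sum and their share of counts are given as a description and without a test, between injured conditions too. The count table held 17 liver samples, 5 of sham-operated fish and 4 of each injured group, sampled on day 1, 3 or 7 after cryoinjury (dpci), the injury being made by touching the exposed ventral lobe with a frozen probe. According to the paper, the animals carried Tg(fabp10a:NLS-mCherry), in which the hepatocyte promoter of fabp10a drives a nuclear red protein. The labels give no age, no other allele and no lobe. Several livers were pooled in each tube, and the methods state that injured border and tissue of other lobes were kept apart. The paper reports sequencing of both the injured ventral region and the contralateral lobe. A legend describes the sham and injured samples as ventral lobes. The levels below may therefore be those of dissected parts and not of whole livers. The sources conflict on what the samples of a condition are, since the methods describe replicate pools of livers and a legend calls the samples of each time point technical replicates. If the latter holds, n counts libraries and not independent pools, and the SD, SE and p-values below measure technical spread only.

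CD59 is a small glycoprotein of the Ly6 family that is held on the cell surface by a lipid anchor. In mammals it binds C8 and C9 and stops the terminal complement proteins from assembling into a membrane pore. Much of the circulating complement is made by hepatocytes, which thereby secrete proteins that CD59 holds off at the surface of host cells. Whether the CD59-like genes of zebrafish do the same is not known from these data.

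The files pair BX908782.2 and BX908782.3 with the same description, and another gene, BX908782.1, carries it too. In the RefSeq annotation of GRCz12tu, the gene identifier of BX908782.1 belongs to ly97.2 and that of BX908782.3 to ly97.3, both protein coding, while BX908782.2 is not listed. The order of genes there was si:ch211-9d9.1, thfp5, ly97.2, crygn1, ly97.3 and acvr2bb, with ly97.3 lying inside the span of crygn1. The sources differ on the genome build of the counts, so no coordinates are given. How reads that fit more than 1 gene were treated, and whether strand was used in counting, is not stated. Reads of near copies could therefore have been split between BX908782.2 and BX908782.3, and for that reason the sum of both is given beside each. Neither gene's length was known for the build counted, so their levels are compared between conditions and not with each other.

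Total counts were between 4743533 and 6800961 per sample. The hepatocyte gene list, with 6 of 6 genes in the table, had a high summed level in every sample. It was at least 48487 CPM, the counts of a gene scaled to the library total. Its gene ambp was nearly absent in sham replicate 4 (1 count) and 7 dpci replicate 1 (10 counts), against 335 to 2938 CPM in the other samples. The list was uneven in 3 dpci replicate 4. There fabp10a was at 1885 CPM against 7184 to 13113 in the other 3 dpci samples. For ambp it was 335 against 1763 to 2938, and for serpina1 220 against 584 to 1962. Its tfa (36132) was lowest too, near replicate 1 (36774), while apoa1b was within the range of the others and fgb above it. The 1 dpci samples fell into 2 pairs of alike libraries, replicates 1 and 2 (Pearson r of log2 CPM across genes 0.965) and replicates 3 and 4 (0.969), against 0.882 to 0.899 between the pairs. No pair of libraries agreed within sampling noise. As the tissue was bulk RNA, fewer cells of a type and less RNA per cell cannot be told apart.

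BX908782.2 was low in sham livers and among the most abundant rows of the table at 1 dpci. Sham replicates 1 to 5 held 293, 184, 93, 81 and 230 counts. The 1 dpci replicates held 102391, 116417, 44312 and 31915 counts. Every 1 dpci sample lay far above every sham sample, and by count the gene ranked 5, 3, 15 and 17 among all rows of those 4 libraries, against ranks of 1052 to 2330 in sham. At 3 dpci the counts were 16417, 1302, 7043 and 98134, still above sham in all 4 samples but spread over a 78.3-fold range of CPM. At 7 dpci they were 6891, 178, 197 and 172, so that 3 of 4 samples were within the sham range and replicate 1 stood alone above it.

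In CPM, BX908782.2 was 30.3 ± 16.1 in sham (SD, n = 5), 14711 ± 8988 at 1 dpci (n = 4), 4972 ± 7244 at 3 dpci (n = 4) and 310 ± 564 at 7 dpci (n = 4). The means were 486-fold, 164-fold and 10.2-fold that of sham at 1, 3 and 7 dpci. A single library carried much of the later means. Without replicate 4 the 3 dpci mean was 1390 CPM, or 45.9-fold sham, and without replicate 1 the 7 dpci mean was 28.5 CPM, or 0.940-fold sham. Among the 1 dpci samples, replicates 1 and 2 averaged 22300 CPM and replicates 3 and 4 averaged 7122 CPM, a ratio of 3.13 between the pairs.

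BX908782.3 was already well counted in sham livers and changed over a narrower range. Its counts were 855, 927, 1086, 1016 and 604 in sham and 10286, 12457, 8718 and 6348 at 1 dpci. They were 15666, 5031, 7252 and 28145 at 3 dpci, and 1329, 1878, 889 and 1909 at 7 dpci. All samples at 1 and 3 dpci were above all sham samples, and the 1 and 3 dpci samples overlapped. At 7 dpci, 3 of 4 samples were above the sham range in CPM.

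In CPM, BX908782.3 averaged 152 ± 28.7 in sham (SD, n = 5), 1864 ± 603 at 1 dpci (n = 4), 2290 ± 1695 at 3 dpci (n = 4) and 236 ± 66.4 at 7 dpci (n = 4). The means were 12.2-fold, 15.0-fold and 1.54-fold that of sham. The 3 dpci mean was 1550 CPM without replicate 4, or 10.2-fold sham. The highest mean of BX908782.3 was thus at 3 dpci and that of BX908782.2 at 1 dpci. Without 3 dpci replicate 4 both had their highest mean CPM at 1 dpci, whereas in the TMM-scaled fit given below BX908782.3 was still higher at 3 dpci than at 1 dpci without that library (log2 fold change against sham 3.06 and 2.72).

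**Figure D1:**
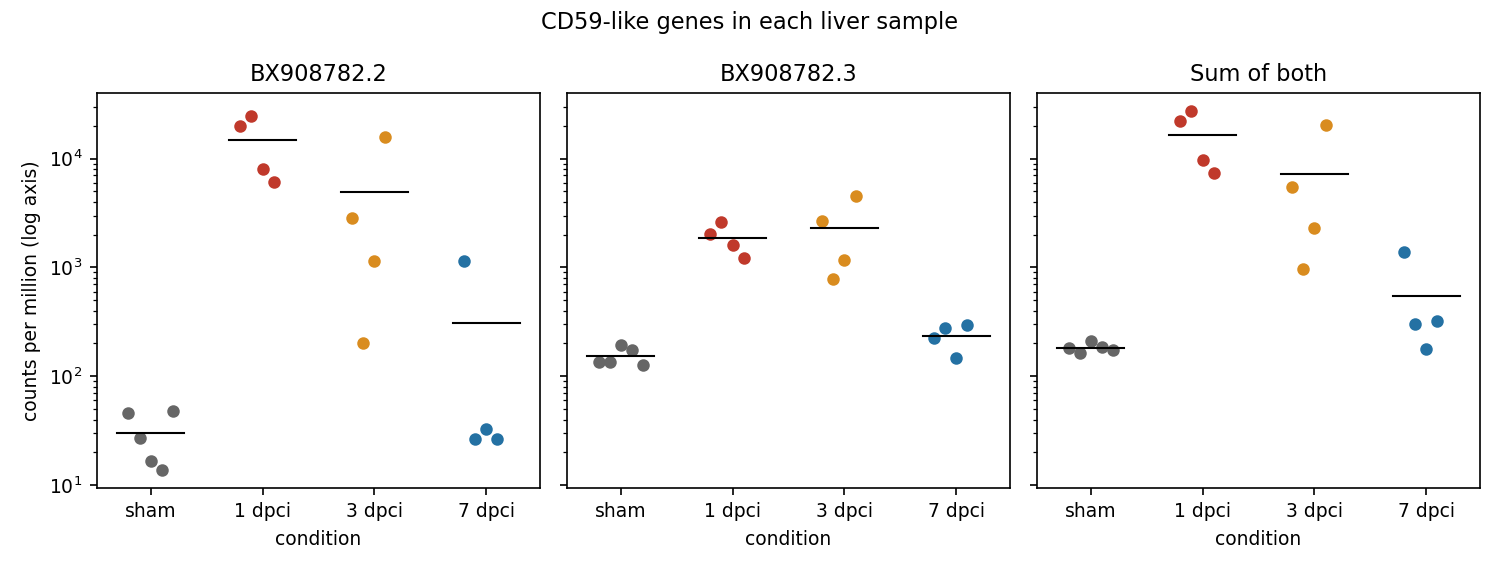
CPM (log axis) of BX908782.2, BX908782.3 and their sum in each of the 17 liver samples by condition, with points for samples and a line for the arithmetic mean. The 1 dpci points of BX908782.2 lie between 6138 and 24542 CPM against 13.8 to 47.9 in sham, and 1 sample each at 3 and 7 dpci stands above the others of its condition.

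Summing both genes removes the effect of reads divided between these 2. It does not restore reads that may have been discarded or counted for another gene such as BX908782.1. The sum was 183 ± 17.1 CPM in sham (SD, n = 5), with a range of only 163 to 209. Its mean reached 16575 ± 9568 CPM at 1 dpci, then 7261 ± 8849 at 3 dpci and 546 ± 559 at 7 dpci (n = 4 each), or 90.7-fold, 39.7-fold and 2.99-fold the sham mean. The 2 genes together took 0.0163% to 0.0209% of the counts in the table in sham and 0.736% to 2.72% at 1 dpci. In 3 dpci replicate 4 they took 2.02%, within the range at 1 dpci, whereas the other 3 dpci samples were at 0.0976% to 0.552%. Without that library the sum at 3 dpci was 16.1-fold sham, and without 7 dpci replicate 1 it was 1.47-fold sham at 7 dpci.

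A fit across all genes with edgeR, which scales libraries by trimmed means of M values (TMM), gave smaller differences than the CPM. For BX908782.2 the log2 fold change against sham was 8.22 (SE 1.39) at 1 dpci, 6.77 (SE 1.31) at 3 dpci and 2.93 (SE 1.12) at 7 dpci. For BX908782.3 it was 2.72 (SE 0.45), 3.36 (SE 0.46) and 0.22 (SE 0.43). For the sum it was 5.68 (SE 0.79), 4.67 (SE 0.76) and 1.11 (SE 0.68). Counted from the largest rise against sham, BX908782.2 ranked 4 of 8412 genes tested at both 1 and 3 dpci, and BX908782.3 ranked 149 and 28. Scaling by column totals alone gave 3.61 in place of 2.72 for BX908782.3 at 1 dpci, and moved the median of all genes there from -0.02 to 0.84.

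As a background for these descriptions, 32.2% of genes tested had every 1 dpci sample above every sham sample in CPM, 5.02% did so at 3 dpci and 1.57% at 7 dpci. At an adjusted p of 0.05 and a log2 fold change of 1.5, 14.3% of genes were called at 1 dpci (4.48% higher and 9.82% lower), 0.0119% at 3 dpci and 0.0% at 7 dpci. The single gene called at 3 dpci was BX908782.3 itself, a gene chosen for that rise, so nothing is read from that call. Nor was the count stable, as DESeq2 called 101 genes at 3 dpci. With edgeR it was 0 without sham replicate 1, 2 or 4 and 35 without sham replicate 5. The 0 calls of edgeR at 7 dpci stood beside 764 genes at an unadjusted p of 0.05 and 5 calls by DESeq2.

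From 3 to 7 dpci BX908782.3 was lower in each 7 dpci sample than in any 3 dpci sample, 147 to 294 CPM against 775 to 4507, a log2 fold change of -3.14 (SE 0.49). Of all genes tested, 1.46% were below every 3 dpci sample at 7 dpci. The high values at 3 dpci were among those that chose the gene, so nothing is read from this difference beyond its size. As each sample was left out, the log2 fold change ran from -3.44 to -2.84.

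BX908782.2 overlapped between 3 and 7 dpci, since 7 dpci replicate 1 at 1156 CPM lay above 3 dpci replicates 2 and 3. Its log2 fold change was -3.84 (SE 1.26), and -7.01 without 7 dpci replicate 1. For the sum, the log2 fold change was -3.56 (SE 0.79). None of the 8412 genes was called from 3 to 7 dpci by edgeR (0.0%), with 619 at an unadjusted p of 0.05 and 31 called by DESeq2.

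The share of BX908782.2 in the counts on both genes had its highest mean at 1 dpci and overlapped between several of the conditions. BX908782.2 held 25.5%, 16.6%, 7.89%, 7.38% and 27.6% of the counts on both genes in sham replicates 1 to 5. At 1 dpci it held 90.9%, 90.3%, 83.6% and 83.4%. At 1 dpci the share was thus above every sham sample, and the libraries of each pair were within 1 percentage point of each other. The shares at 3 dpci were 51.2%, 20.6%, 49.3% and 77.7%, and those at 7 dpci were 83.8%, 8.66%, 18.1% and 8.27%. The 95% Wilson intervals, which cover counting error only, were far narrower than these differences, the widest running from 24.7% to 30.7% in sham replicate 5. As counts per gene depend on its length, the share is a share of reads and not of transcripts.

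The mean share was 16.99 ± 9.49% in sham (SD, n = 5), 87.0 ± 4.12% at 1 dpci, 49.7 ± 23.4% at 3 dpci and 29.7 ± 36.4% at 7 dpci (n = 4 each). The 1 dpci mean was 70.1 percentage points above that of sham, and no sample overlapped. The 3 dpci mean was -37.4 percentage points from that of 1 dpci, again without overlap, and 32.7 percentage points above that of sham, where sham replicates 1 and 5 overlapped with 3 dpci replicate 2.

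The share at 7 dpci rested on replicate 1. Its mean was 12.7 percentage points above sham, and without that replicate the difference was -5.30. Against 3 dpci the difference was -19.95 percentage points and against 1 dpci -57.3, and the samples overlapped in both, 7 dpci replicate 1 lying above every 3 dpci sample.

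**Figure D2:**
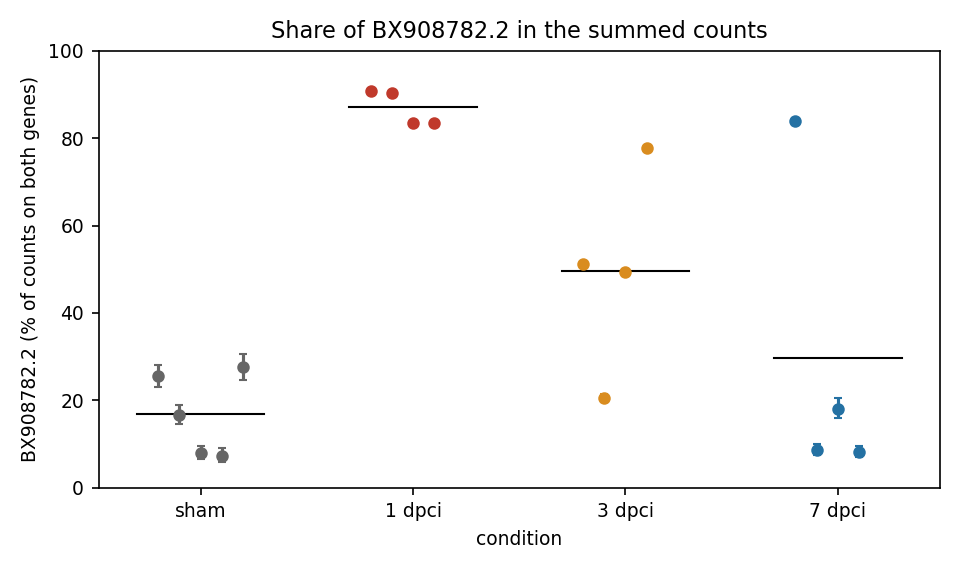
Share of BX908782.2 in the counts of both CD59-like genes (%, y axis) in each liver sample by condition, with points for samples, bars for 95% Wilson intervals and a line for the mean. The 4 samples at 1 dpci lie between 83.4% and 90.9%, sham lies between 7.38% and 27.6%, and 7 dpci replicate 1 stands at 83.8%.

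Over all 17 samples the 2 genes nonetheless moved together, and both had been chosen for their rise over sham. Across these samples, which share libraries and conditions, their log2(CPM + 1) values had a Pearson r of 0.900 and a Spearman rho of 0.740. Within 1 dpci and within 3 dpci both ranked the samples in the same order. In sham the order differed, replicates 3 and 4 being lowest for BX908782.2 (16.5 and 13.8 CPM) and highest for BX908782.3 (193 and 173 CPM). At 7 dpci, replicate 1 was highest for BX908782.2 (1156 CPM) but below replicates 2 and 4 for BX908782.3 (223 against 278 and 294 CPM). The 5 genes most like the sum, out of 6134 with a mean of at least 5 CPM, were lect2l (r = 0.951), si:ch211-9d9.1 (0.938), fthl28 (0.936), hamp (0.930) and saa (0.921). After the mean of each condition was taken out, r was 0.779, 0.815, 0.750, 0.897 and 0.864 in the same order. These genes were picked for this likeness, and their values are given as a description.

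lect2l is annotated as leukocyte cell-derived chemotaxin 2 like, and LECT2 is a secreted liver protein in mammals. It was at 2.84 to 22.5 CPM in sham and at 2553, 2964, 839 and 764 CPM in 1 dpci replicates 1 to 4, with the same 2 replicates on top as for BX908782.2. hamp encodes hepcidin, the liver hormone that restrains iron export. It was at 0.882 to 7.27 CPM in sham, 294, 276, 138 and 76.9 CPM at 1 dpci, and 14.8, 4.01, 15.8 and 254 CPM at 3 dpci. Thus hamp shared its high 3 dpci sample with BX908782.2, as did saa and si:ch211-9d9.1. lect2l and fthl28 did not, being highest in 3 dpci replicate 1 (744 CPM against 328 in replicate 4 for lect2l, and 30.8 against 29.8 for fthl28).

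saa encodes serum amyloid A, an acute-phase protein of the liver. It was at 83.8, 70.6, 25.2 and 26.0 CPM at 1 dpci, and at 7 dpci replicate 1 had 13.8 CPM and the other 3 samples 0 counts. A count of 0 there allows a level of up to 0.445 to 0.496 CPM. fthl28, a heavy-chain-like ferritin of the family that stores iron, was at 0.441 to 8.51 CPM in sham and at 158, 86.4, 42.1 and 20.8 CPM at 1 dpci. The function of si:ch211-9d9.1 is not given in the files, and it stood near the CD59-like genes in the RefSeq order. It was at 0 to 0.790 CPM in sham and at 154, 187, 23.0 and 27.5 CPM at 1 dpci.

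**Figure D3:**
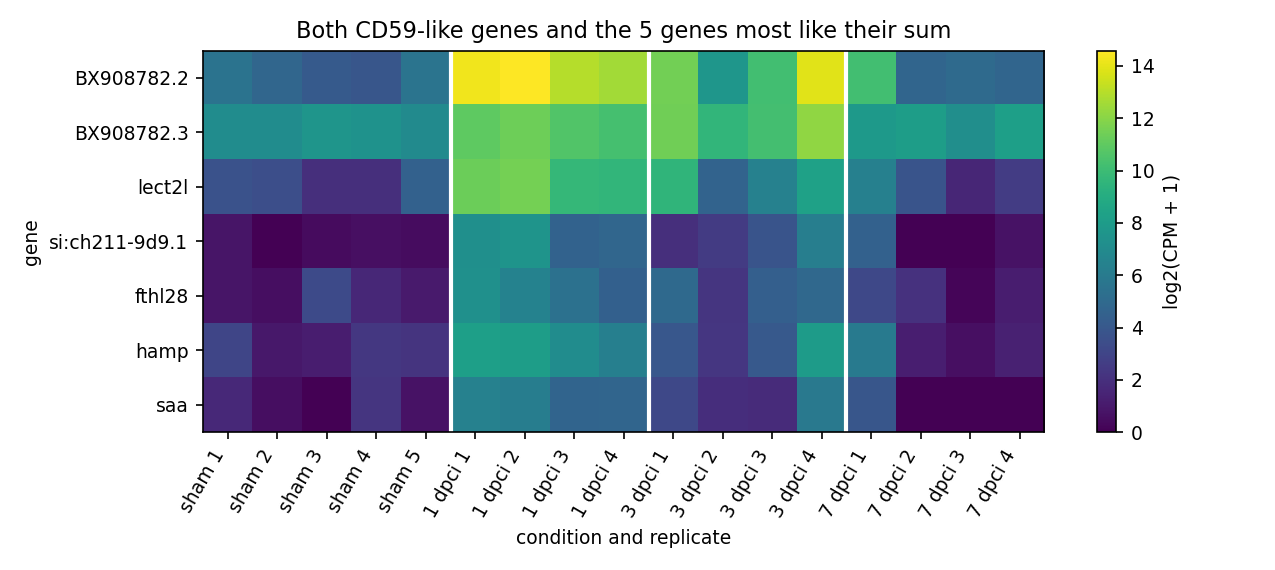
log2(CPM + 1), shown by colour, of both CD59-like genes and of the 5 genes most like their sum (rows) in the 17 liver samples (columns, by condition and replicate). The 1 dpci samples are the brightest for most rows, and 3 dpci replicate 4 and 7 dpci replicate 1 stand out within their conditions for BX908782.2, hamp, saa and si:ch211-9d9.1.

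The 2 libraries with the highest BX908782.2 of their condition differed from the others in further ways. On a scale where 0 is the sham mean and 1 the 1 dpci mean, the median position of 375 other genes called higher at 1 dpci was 0.565 in 3 dpci replicate 4 against 0.247 to 0.292 in the other 3 dpci samples. It was 0.359 in 7 dpci replicate 1 against -0.08 to 0.160 in the other 7 dpci samples. For 826 genes called lower the values were 0.4998 against 0.0933 to 0.220 at 3 dpci, and 0.245 against -0.09 to 0.0930 at 7 dpci. The 2 libraries thus lay nearer to the 1 dpci level than the rest of their conditions.

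The neutrophil and macrophage list, of which 5 of 10 genes (mpx, mmp9, mmp13a, mfap4 and marco) were in the table, summed to 159 CPM in 3 dpci replicate 4 against 26.0 to 79.9 in the other 3 dpci samples. It summed to 101 CPM in 7 dpci replicate 1 against 12.4 to 24.8. The high sum of 3 dpci replicate 4 came from mmp13a (68.7 CPM), mpx (45.0) and mmp9 (19.9), while the macrophage genes mfap4 (11.5) and marco (13.9) were higher in 3 dpci replicate 3, at 18.7 and 15.9. Its range was 9.85 to 31.4 CPM in sham and 44.7 to 111 at 1 dpci, where the highest sum was in replicate 3 and not in the replicates highest for BX908782.2. The part of these cells in the levels of the CD59-like genes was not tested. The 5 genes for complement factor H and its like were cfh, cfhl1, cfhl2, cfhl3 and cfhl4. Together they summed to 6.73 CPM in 3 dpci replicate 4, 3.35 in 7 dpci replicate 1 and 3.64 in 7 dpci replicate 3. The other samples were at 357 to 2482 CPM. BX908782.2 was at 32.6 CPM in 7 dpci replicate 3. Any link between the cfh genes and the CD59-like genes was not tested.

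None of the other CD59 and Ly6 genes in the table was called higher at 1 dpci. Of 4 such genes, 0 were called higher and 2 lower at 1 dpci, beside 4.48% and 9.82% of all genes tested, so that 0 of 4 higher is near the background. They had a median log2 fold change of -1.47 beside -0.02 over all genes tested. BX908782.1, the other gene of the same description, had 20, 55, 9, 34 and 7 counts in sham and 1, 5, 1 and 15 counts at 1 dpci. Its log2 fold change was -2.86 (SE 0.72), with an adjusted p of 0.0105 by edgeR, and it remained called as each sample was left out, although 1 dpci replicate 4 overlapped sham. As a gene of the same description, it may also share reads with the other 2, which makes its low counts uncertain. ly6m7, a Ly6 family gene, had 37, 69, 8, 59 and 0 counts in sham and 0 counts in all 4 samples at 1 dpci. Against the floor of 3 counts per library its mean was at least 8.68-fold lower than in sham (adjusted p = 0.0159 by edgeR), though sham replicate 5 was also at 0, and the call was lost with the 1 dpci libraries summed in 2 pairs.

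The gene named cd59 itself was low and uneven. Its counts were 3, 17, 8, 48 and 193 in sham and 17, 20, 182 and 196 at 1 dpci, so the groups overlapped (log2 fold change 0.15, SE 0.93, adjusted p = 0.922 by edgeR). Within 1 dpci it was higher in replicates 3 and 4, the opposite of BX908782.2. LOC101882264 was at 0 to 6.77 CPM over all samples and was not called in any comparison. Of the neighbours in the RefSeq order, acvr2bb, an activin receptor gene chosen after its values were seen, was at 1.88 ± 0.951 CPM in sham (SD, n = 5) and 4.21 ± 2.24 CPM at 1 dpci (n = 4), with a log2 fold change of 0.33 (SE 0.52, adjusted p = 0.674 by edgeR).

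**Figure D4:**
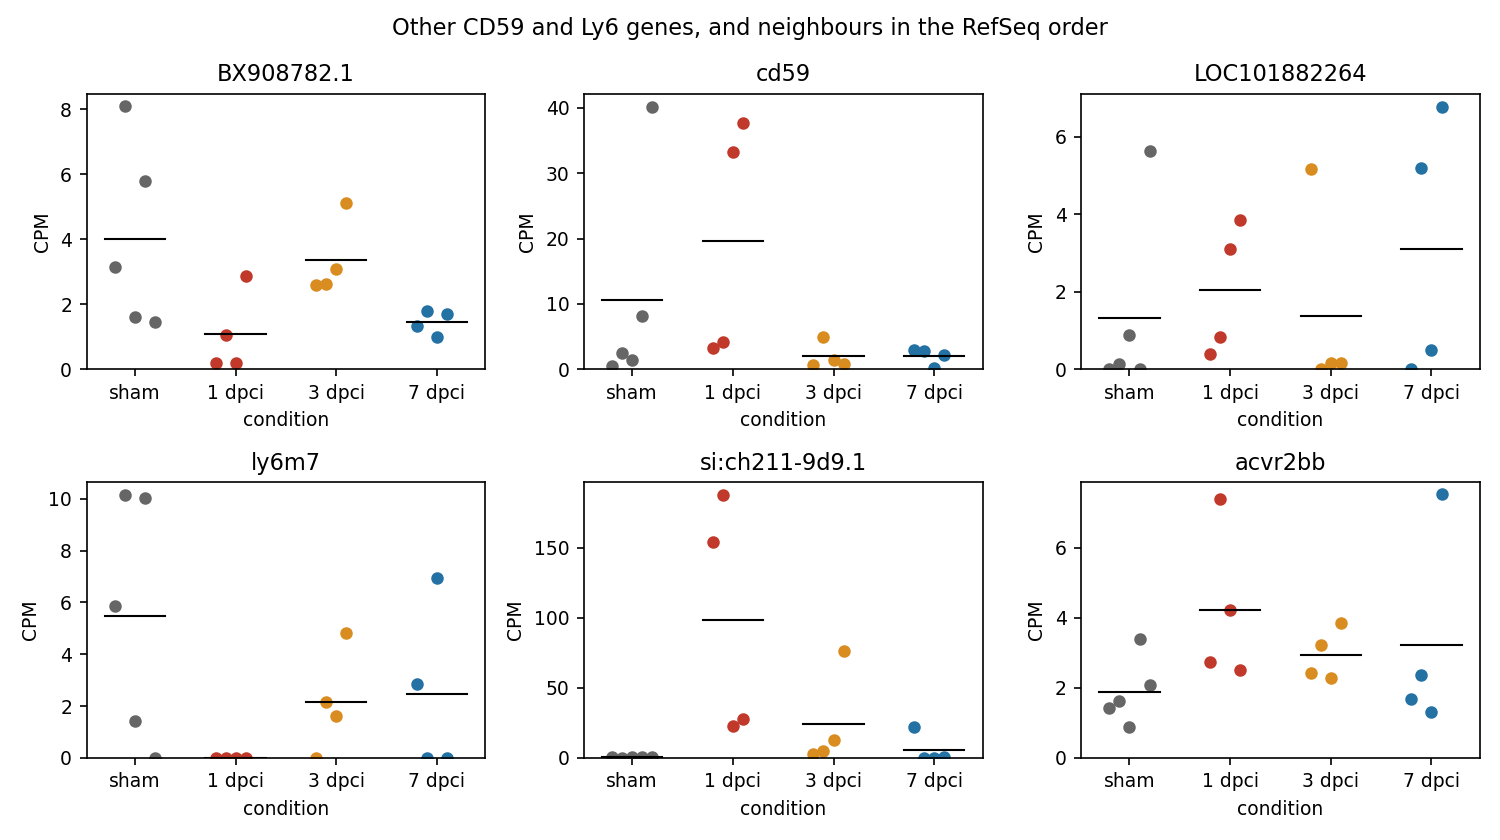
CPM (y axis, linear, a scale of its own in each panel) of the other CD59 and Ly6 genes (BX908782.1, cd59, LOC101882264 and ly6m7) and of si:ch211-9d9.1 and acvr2bb in each liver sample by condition, with a line for the mean. si:ch211-9d9.1 reaches 187 CPM at 1 dpci, ly6m7 is at 0 in all 4 samples at 1 dpci, and cd59 is high in 1 sham and 2 of the 1 dpci samples.

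The complement genes were compared at 1 dpci with the background of 4.48% of all genes called higher and 9.82% called lower, at which few or none of a list of this size would be called higher. Of 8 terminal complement genes listed, whose proteins build the membrane pore, 6 were in the table, and 0 were called higher and 2 lower, with a median log2 fold change of -1.14 beside -0.02 over all genes. c8b, a chain of C8, went from 211 ± 55.5 CPM in sham (SD, n = 5) to 117 ± 38.7 CPM at 1 dpci (n = 4), with a log2 fold change of -1.74 (SE 0.23) and an adjusted p of 0.000183 by edgeR. c8a, another chain of C8, had a log2 fold change of -1.56 (SE 0.35, adjusted p = 0.00535 by edgeR) and lost its call without sham replicate 3, without sham replicate 4, without 1 dpci replicate 1 and without 1 dpci replicate 2. c9, whose protein forms the ring of the pore, was at 2157 ± 1187 CPM in sham and 2431 ± 1436 CPM at 1 dpci (log2 fold change -0.70, SE 0.50, adjusted p = 0.319 by edgeR). With column totals as the only scaling 0 terminal genes were called, and 3 of 6 had a positive log2 fold change.

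Of 22 genes listed for the control of complement, 14 were in the table, and at 1 dpci 0 were called higher and 5 lower, beside the same 4.48% and 9.82% of all genes, with a median log2 fold change of -1.18. vtnb, one of the vitronectin genes, whose protein binds forming pores in the fluid phase, went from 638 ± 174 CPM in sham (SD, n = 5) to 194 ± 79.0 CPM at 1 dpci (n = 4), with a log2 fold change of -2.63 (SE 0.41) and an adjusted p of 0.000472 by edgeR. It remained called under each alternative tried. The others called lower were vtna (-1.52), the clusterin gene clu (-1.79), rca2.2 (-2.12) and the factor H-like gene cfhl1 (-6.26). cfhl1 lost its call when any 1 of the 1 dpci replicates was left out, clu and vtna lost theirs in 6 and 3 of 17 such fits, rca2.2 without sham replicate 2, and 2 of the 14 genes, cfhl1 and vtnb, were called with column totals only. The count ran from 2 to 6 as each sample was left out and was 2 without sham replicate 2, 1 dpci replicate 2 or 1 dpci replicate 3, and 3 without 1 dpci replicate 1.

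At 3 and 7 dpci, and from 3 to 7 dpci, no gene of these 3 lists was called by edgeR or DESeq2. At an unadjusted p of 0.05 by edgeR, these 3 comparisons in turn had 1, 2 and 0 of the 4 CD59 and Ly6 genes. They had 3, 0 and 2 of the 6 terminal genes, and 1, 2 and 0 of the 14 control genes. Over all 8412 genes tested the counts were 996, 764 and 619. At 3 dpci against sham, the 6 terminal genes had a median log2 fold change of 0.76. c9 was at 7172 ± 2064 CPM at 3 dpci (n = 4), with an adjusted p of 0.254 by edgeR. Hepatocyte genes also differed at 1 dpci, 2 of 6 (fabp10a and apoa1b) being called lower, with a median log2 fold change of -1.04. The values of ambp (-0.78) and serpina1 (-1.13) were lower without a call. That of tfa was lower too (-0.94, adjusted p = 0.0137 by edgeR), short of the fold threshold. By contrast, fgb was higher (0.94, SE 0.24, adjusted p = 0.00948 by edgeR), short of the fold threshold. These hepatocyte values depend on the TMM scaling, whose factors averaged 0.763 in sham and 1.41 at 1 dpci (geometric means). In mean CPM, tfa was at 23855 in sham and 23510 at 1 dpci, ambp at 759 and 746, and serpina1 at 311 and 280. Likewise fabp10a was at 14112 and 9166, apoa1b at 24231 and 12920, and fgb at 3828 and 12935. The part of hepatocytes in the complement values was not tested. Over all genes tested, 9.82% were called lower and 4.48% higher at 1 dpci. Genes of the other cell types called lower there were 2 of 3 for exocrine pancreas and 2 of 2 for red cells. For bile ducts it was 1 of 3 (cldn15a), with anxa4 (log2 fold change -0.51) and sox9b (0.14) not called. Those called higher were 2 of 5 for neutrophils and macrophages (mmp13a and mfap4). The others of that list differed in sign, mmp9 having a log2 fold change of 1.35 and marco -0.33 without a call, and the neutrophil gene mpx -2.55 (adjusted p = 0.110 by edgeR and 0.0411 by DESeq2, which called it lower). No endothelial, skin or fibroblast gene of 3, 2 and 3 tested was called at 1 dpci. All 3 endothelial genes had a positive log2 fold change there, with a median of 0.36. In CPM, which is without the TMM scaling, they summed to 29.1 to 40.4 at 1 dpci and 9.58 to 22.7 in sham. Of single genes tested, 32.2% had every 1 dpci sample above every sham sample. The skin sums (26.4 to 445 and 57.6 to 148) and fibroblast sums (21.9 to 80.2 and 21.3 to 48.5) overlapped.

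**Figure D5:**
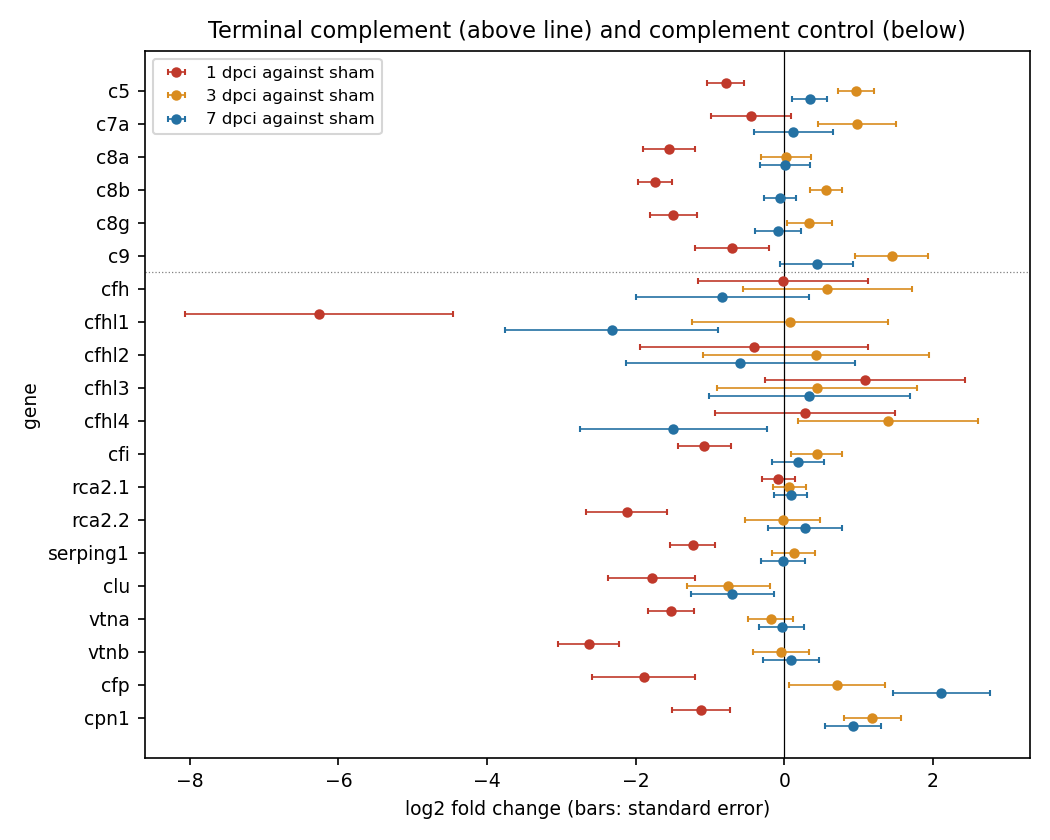
log2 fold change against sham (x axis) at 1, 3 and 7 dpci for the 6 terminal complement genes (above the dotted line) and the 14 complement control genes (below it), with bars for the standard error. Every terminal gene lies below 0 at 1 dpci, where c8b is at -1.74, and cfhl1 has the lowest value at -6.26 with the widest bar.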

How the data were processed

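RNA was isolated from adult zebrafish livers, and stranded libraries were sequenced with a read length of 75 bp. Per the submitters' processing notes, the authors used cutadapt 1.16, HISAT2 2.1.0 and featureCounts 1.6.0. The notes name danRer10 and the methods a later Ensembl build. The deposited counts per gene were used as given. Dividing the counts by their library totals gave the deposited CPM values to within 0.0005.

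The tests used edgeR 4.0.16 in R 4.3.3 (filterByExpr, TMM, quasi-likelihood test, 1 fit of all 17 samples), with Benjamini-Hochberg adjustment over 8412 genes, or 8411 with the 2 genes summed. Tests of the CD59-like genes from 3 to 7 dpci (edgeR) and of the share (exact permutation, SciPy 1.17.1) were run as planned and, with TMM and all samples, passed no adjusted p of 0.05. From 3 to 7 dpci, DESeq2 passed for each gene and the sum, and edgeR for BX908782.3 with column totals and in 2 of 17 fits with a sample left out. Since they reuse values that chose the genes, their p-values are not given, and nothing is read from which of these tests passed. Depth was 4743533 to 6800961 counts per sample, so for the CD59-like genes counting error was small beside the spread between samples. The floor was 3 counts. The scripts were tested on simulated data. Alternatives were DESeq2 1.42.0, its size factors in edgeR, column totals, no filter, a replicate block and each sample left out. Summing the 1 dpci libraries in 2 pairs and leaving out 7 dpci libraries 30 and 31 were chosen after seeing the data.

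The CD59-like genes, the lists and the tests were chosen with earlier results of these data known. The genes named are those 2, the CD59 and Ly6 list, the lists of terminal complement and complement control, and the 5 genes with a mean of at least 5 CPM whose log2(CPM + 1) correlated best with the sum. No sequences were used here.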

Additional observations from a re-analysis of the deposited data

Results flagged for a closer look

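In 52 groups of 4 or 5 samples, the highest or the lowest sample was checked for standing apart, by its gap to the nearest other sample divided by the whole range of the group. 15 groups had such a sample, where chance gives about 1 in 20 groups of normally distributed values. CPM values can be skewed, those of BX908782.2 at 3 dpci having a 78.3-fold range, so the rate by chance may be higher here. The genes checked share libraries and were in part picked for their likeness, so these results are not independent of each other.

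In 7 dpci replicate 1 the highest sample stood apart for BX908782.2 (0.995 of the range), the sum of both CD59-like genes (0.883), the share of BX908782.2 (0.869), lect2l (0.861), si:ch211-9d9.1 (0.972), hamp (0.983) and saa (1, as the other 3 samples were at 0). In 3 dpci replicate 4 it stood apart for BX908782.2 (0.831), si:ch211-9d9.1 (0.864), hamp (0.953) and saa (0.9). BX908782.3 gave no such sample in any condition.

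Sham replicate 3 stood apart for fthl28 (0.802), and sham replicate 5 for cd59 (0.806) and LOC101882264 (0.842). 3 dpci replicate 1 stood apart for LOC101882264 (0.969).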

How the results depend on the processing

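The levels against sham kept their direction under each alternative at 1 and 3 dpci. Below, log2 fold changes are against sham unless stated, and where a value moved the cause was not tested.

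With column totals as the only scaling, BX908782.3 was at 3.61 at 1 dpci, 0.63 at 7 dpci and -3.28 from 3 to 7 dpci, the sum was at 6.50 at 1 dpci, 2042 genes were called at 1 dpci (1679 higher and 363 lower, against 377 higher and 826 lower with TMM), 2 from 3 to 7 dpci, and 0 terminal complement and 2 complement control genes were lower at 1 dpci. With DESeq2, the log2 fold change from 3 to 7 dpci was -3.83 for BX908782.2, -3.14 for BX908782.3 and -3.56 for the sum, and 101, 5 and 31 genes were called at 3 dpci, at 7 dpci and from 3 to 7 dpci.

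With the 1 dpci libraries summed in 2 pairs, chosen after seeing the data, 534 genes were called at 1 dpci, 1 gene was lower in each of the lists of CD59 and Ly6 genes, terminal complement and complement control, and the share of BX908782.2 differed by 70.05 percentage points from sham and by -37.36 between 3 and 1 dpci. Without 7 dpci libraries 30 and 31 (replicates 4 and 2), also chosen after seeing the data, 1 gene was called from 3 to 7 dpci. The share at 7 dpci was then 1.31 percentage points above 3 dpci. It rested on only replicates 1 and 3, at 83.8% and 18.1%. With counts pooled over the samples of a condition, the share at 3 dpci differed by 52.2 percentage points from sham and by -19.98 from 1 dpci.

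As each sample was left out, the log2 fold change at 7 dpci ran from -0.24 to 3.31 for BX908782.2, the lowest without 7 dpci replicate 1, and from 0.23 to 1.36 for the sum, and that of BX908782.3 from 3 to 7 dpci ran from -3.44 to -2.84. The genes called at 3 dpci ran from 0 to 35, the most without sham replicate 5, and from 3 to 7 dpci from 0 to 2. Sham replicate 5 had a TMM factor of 1.027, against 0.608 to 0.857 in the other sham libraries. The share at 3 dpci differed by 23.4 to 42.4 percentage points from sham and by -46.71 to -27.66 from 1 dpci, and the share at 7 dpci by -5.30 to 19.89 from sham. Terminal complement genes lower at 1 dpci ran from 1 to 3 and complement control genes from 2 to 6.

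The correlation of deviations between samples with the same replicate number ran from -0.26 to 0.42 and was over 0.1 in 5 of 24 pairs. Between samples with different numbers it ran from -0.26 to 0.39 and was over 0.1 in 11 of 84 pairs. As these ranges overlap, they cannot decide whether the replicate numbers of the labels pair the samples. With a replicate block, 27 genes were called at 3 dpci in place of 1, and the log2 fold change of BX908782.3 from 3 to 7 dpci was -3.11. At 1 dpci the total of 1203 was the same as without it, but 433 were higher and 770 lower, against 377 and 826.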
